A study of Mus musculus with 34 samples.

Results

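The cell cycle and DNA replication genes were a set of 40 genes taken by symbol, running from the cyclins that open the cycle to the proteins that part the chromosomes. Every probe whose platform symbol was 1 of the 40 was used, which gave 85 probes of the 45281 on the array. These probes named 38 of the 40 genes, of 19047 genes with a named probe in the whole series. No probe was named here for Ccnb1, the gene of mitotic cyclin B1, or for Mki67, the gene of the Ki-67 antigen used to count dividing cells. All 85 probes passed the filter on dim probes. A gene with more than 1 probe was represented by its brightest probe.

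RNA of tumors and livers from male C3H/HeNCrl mice was measured on Illumina mouse BeadChips, with 34 arrays in 6 groups. The mice had received a single whole-body irradiation or a sham irradiation and were followed until they were moribund or the study ended, and tumors were hepatocellular carcinoma (HCC). The question was how HCC that arose after radiation of high linear energy transfer (LET), from Fe or Si ions, compared with HCC after low-LET gamma rays and with HCC that arose without irradiation. The 7 high-LET HCC came from mice given 0.1 to 1 Gy, the 3 low-LET HCC from mice given 2 or 3 Gy, and the 4 spontaneous HCC from mice that were not irradiated. The non-HCC livers came from 10 mice given 1 Gy of high-LET radiation, from 4 mice given 3 to 7 Gy of low-LET radiation, and from 6 sham-irradiated mice. These doses are those of the labels, and the study's methods give a lower range for gamma rays than the labels do for the low-LET non-HCC livers. Doses overlapped only in part, with high-LET HCC replicates 6 and 7 at the 1 Gy of the high-LET livers and low-LET HCC replicate 3 at the 3 Gy of 1 low-LET liver, and the part of dose was not tested. Each array was taken as 1 mouse, and p-values measure the spread between these samples.

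Cells enter the division cycle when D-type and E-type cyclins activate their kinases, which inactivate the retinoblastoma protein and release E2F transcription factors. E2F targets then license and fire replication origins and supply deoxynucleotides, and a later wave of genes, many of them bound by the MuvB complex with MYBL2 and FOXM1, drives the chromosomes through mitosis. Most hepatocytes of an adult liver are out of the cycle, and they re-enter it after injury and in liver tumors.

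Hepatocyte markers (Alb, Ttr, Apoa1, Tat, Cps1 and Hnf4a) summed to 58810 to 76030 signal units in the 14 HCC and 65780 to 75520 in the 20 non-HCC livers, and Tat, the tyrosine aminotransferase gene, was above background on no array of 5 of the 6 groups. On the first principal component over all probes, high-LET HCC replicates 5, 6 and 7 lay at -7.2, -7.9 and -13.3, apart from the other HCC at 31.6 to 68.9 and near the non-HCC livers at -29.9 to -20.9. Counts and the differences of the called genes that rest on the high-LET HCC are also given without these 3 tumors where a call changed. Leaving out the tumors nearest the livers favors larger differences from livers, so the p-values of those fits are descriptive. The 7 neutrophil markers summed to 33340 in high-LET HCC replicate 3 and to 479.8 to 757.5 in sham livers, where Ngp, Ltf and Mpo were not above background on any array. The 5 measured macrophage markers summed to 1313 to 6696 in high-LET HCC and 1325 to 1960 in sham livers, and the 5 erythroid markers to 665.1 to 3693 in HCC and 2746 to 4569 in non-HCC livers. The part of these cells in the results below was not tested. In whole tissue, fewer cells of a type and less RNA per cell cannot be told apart.

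Promoter sequence was at hand for 32 of the 40 genes, and 11 of these belonged to genes that passed the test in some comparison below. The 200 bases before the start site are printed for 8 of them, from RefSeq (GRCm38.p6), because their levels moved in the tumors. The other 3, Aurka, Mcm5 and Tk1, had over 30 bases of this window inside the annotated gene and are not printed, and Ccnd1 had no entry. Capitals mark 2 motifs of cell cycle promoters, read on both strands: the CCAAT box (CCAAT or ATTGG), bound by NF-Y, and the CHR element (TTTGAA or TTCAAA), bound by MuvB.
Ccne1 (chr7:38107491-38107690, minus strand): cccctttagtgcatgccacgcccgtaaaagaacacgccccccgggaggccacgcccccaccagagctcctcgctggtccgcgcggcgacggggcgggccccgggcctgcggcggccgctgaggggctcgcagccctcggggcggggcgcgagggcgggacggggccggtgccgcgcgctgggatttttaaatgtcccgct
Cdk4 (chr10:127063335-127063534, plus strand): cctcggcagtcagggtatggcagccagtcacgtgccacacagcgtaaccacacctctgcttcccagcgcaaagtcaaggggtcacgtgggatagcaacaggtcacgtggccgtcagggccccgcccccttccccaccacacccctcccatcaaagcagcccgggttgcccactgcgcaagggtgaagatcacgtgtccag
Mcm2 (chr6:88898781-88898980, minus strand): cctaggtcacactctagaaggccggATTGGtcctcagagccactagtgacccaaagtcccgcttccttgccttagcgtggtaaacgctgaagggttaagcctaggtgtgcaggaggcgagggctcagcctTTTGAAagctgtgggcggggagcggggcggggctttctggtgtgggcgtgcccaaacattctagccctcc
Plk1 (chr7:122159235-122159434, plus strand): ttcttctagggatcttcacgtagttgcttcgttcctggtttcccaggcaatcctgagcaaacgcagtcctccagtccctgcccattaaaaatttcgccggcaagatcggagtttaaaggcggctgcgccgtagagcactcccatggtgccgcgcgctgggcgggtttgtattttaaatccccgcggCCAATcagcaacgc
Mad2l1 (chr6:66535021-66535220, plus strand): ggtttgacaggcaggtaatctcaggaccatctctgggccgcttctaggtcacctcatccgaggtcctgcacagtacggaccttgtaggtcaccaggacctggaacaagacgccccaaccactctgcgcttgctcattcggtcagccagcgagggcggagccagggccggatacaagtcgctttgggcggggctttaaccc
Birc5 (chr11:117849037-117849236, plus strand): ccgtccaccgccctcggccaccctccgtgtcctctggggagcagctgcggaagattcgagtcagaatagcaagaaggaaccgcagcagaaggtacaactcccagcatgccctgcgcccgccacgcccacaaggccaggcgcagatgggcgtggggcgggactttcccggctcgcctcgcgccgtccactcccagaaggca
Cenpa (chr5:30666686-30666885, plus strand): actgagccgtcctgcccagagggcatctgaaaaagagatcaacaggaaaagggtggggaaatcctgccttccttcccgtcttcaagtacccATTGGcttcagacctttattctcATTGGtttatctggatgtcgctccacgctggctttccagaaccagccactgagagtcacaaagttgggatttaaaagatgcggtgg
Cdc20 (chr4:118437344-118437543, minus strand): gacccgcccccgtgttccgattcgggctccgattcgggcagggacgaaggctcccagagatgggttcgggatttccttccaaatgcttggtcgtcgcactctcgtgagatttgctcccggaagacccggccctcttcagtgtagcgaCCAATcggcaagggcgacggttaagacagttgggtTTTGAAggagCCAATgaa
Cdc20 and Mcm2 held both motifs. In Cdc20, which takes part in mitotic exit, the CHR element lay 18 to 13 bases before the start, with CCAAT boxes 53 to 49 and 8 to 4 bases before it. In Mcm2, a helicase subunit, the CHR element lay 70 to 65 bases before the start. The kinetochore gene Cenpa held 2 CCAAT boxes and no CHR element, Plk1 held 1 CCAAT box, and Ccne1, Cdk4, Mad2l1 and Birc5 held neither of these letter strings in the window.

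Across the 32 promoters of the set, 24 (75%) held a CCAAT box, 8 (25%) a CHR element and 8 (25%) both. Of all 32851 promoters of the same length, 29.3% held a CCAAT box, 12.5% a CHR element and 3.69% both. Each gene of the set gave 1 promoter, whereas the 32851 were not reduced to 1 per gene. Among the 24 is Aurka, whose window lay with all 200 bases inside the annotated gene. CHR elements were in 5 of the 11 promoters of the spindle, kinetochore and chromosome genes and in 2 of the 5 of the mitotic cyclins and kinases, against 1 of the 8 of the replication genes and 0 of the 3 of the G1 genes. An E2F string (TTTNNCGC or GCGNNAAA) was in 5 of the 32 promoters (15.6%) and in 3.53% of all promoters, and 3 of these 5 belonged to replication genes. A match of letters is not evidence that a factor bound there.

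A module score was taken for each sample as the mean, over the 38 measured genes, of the log2 signal minus the mean of the sham livers. The score was 0.396, 0.118, 0.237, -0.077, 0.032, 0.125 and -0.084 in high-LET HCC replicates 1 to 7. It was 0.220, 0.356 and 0.231 in the low-LET HCC and 0.134, 0.130, 0.151 and 0.089 in the spontaneous HCC. In the non-HCC livers it lay at -0.134, -0.035 and 0.009 (lowest, median and highest) in the high-LET group, at -0.080 to -0.017 in the low-LET group, and at -0.059 to 0.072 in the sham group. All low-LET and all spontaneous HCC lay above the highest of the 20 non-HCC livers, whereas the high-LET HCC overlapped them. By the median over the 38 genes in place of the mean, low-LET HCC, at 0.115 to 0.173, still lay above all non-HCC livers (up to 0.07). The spontaneous HCC, at 0.063, 0.005, 0.096 and 0.011, then overlapped the livers. In spontaneous HCC, 22 of the 38 genes had a log2 fold change over sham livers above 0.

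**Figure D1:**
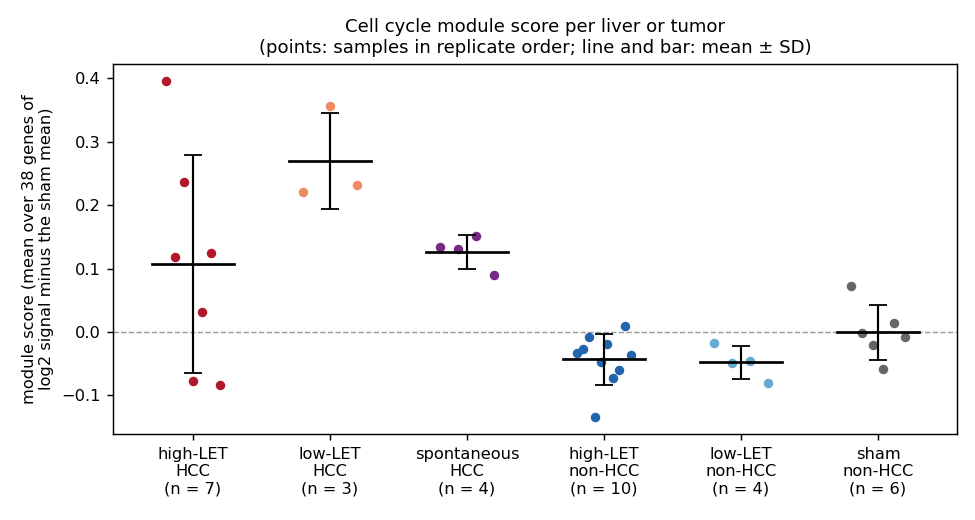
Module score (vertical axis, log2) of each sample in the 6 groups, with the group mean and SD as line and bar. The 7 high-LET HCC spread over -0.084 to 0.396, whereas the 4 spontaneous HCC lie within 0.089 to 0.151 and every low-LET HCC is at 0.220 or above.

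As group means, the high-LET HCC scored 0.107 ± 0.172 (SD, n = 7). Low-LET HCC scored 0.269 ± 0.076 (SD, n = 3) and spontaneous HCC 0.126 ± 0.026 (SD, n = 4), against 0 ± 0.043 for the sham livers (SD, n = 6). The high-LET mean was 0.059 without replicate 1 and 0.168 without replicates 5, 6 and 7. It is a description without a test, because the 38 genes share their samples. The number of genes above the highest sham liver was 2 to 21 per tumor in high-LET HCC (median 12), 16 to 18 in low-LET HCC and 11 to 14 in spontaneous HCC, against 1 to 6 in high-LET and 0 to 4 in low-LET non-HCC livers. The share of all genes above their highest sham liver was not counted, so these numbers have no baseline over all genes. The size of the score depended on how background was removed: on the authors' own normalized values the low-LET HCC lay 0.592 above the sham livers, where it lay 0.269 here.

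Some genes of the set were dim in these tissues. Per array, 25 to 33 of the 38 genes, each read by its brightest probe, were above the background limit. Of all 45281 probes, 21755 to 26311 were. Signal was above the background limit on all 34 arrays for 21 of the 38 genes and on 10 to 33 arrays for 10. Ccne2, Bub1 and Ube2c were above it on 3 to 9 arrays, and Gmnn, Ccna2, Ccnb2 and Ttk on fewer than 3. Ccna2 and Ccnb2 encode cyclins of S phase and mitosis, Gmnn the licensing inhibitor geminin, and Ttk the checkpoint kinase MPS1, and differences of these 4 genes could hardly be seen at this brightness.

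In the heat map of the 38 genes, the tumors differed more from one another than the livers did for some genes and not for others. Over the 14 HCC and the 20 non-HCC livers, the SD of log2 signal was 0.519 and 0.120 for Birc5 (a ratio of 4.31). It was 0.274 and 0.065 for Aurka (4.20), 0.416 and 0.102 for Mcm2 (4.07), 0.549 and 0.147 for Cdc20 (3.74), and 1.372 and 0.382 for Ccnd1 (3.59). For Pcna, the sliding clamp of the replication fork, it was 0.089 and 0.103. Ratios were near or under 1 for other genes too, among them Ccnb2 (0.68), Ube2c (0.76), Bub1b (0.87), Rrm2 (0.99) and Ttk (1.04). The HCC here pool all kinds of tumor, and the ratio over all genes was not counted. Ccnd1 lay above its highest non-HCC liver in 11 of 14 HCC, Cenpa, Mcm2 and Mad2l1 in 10, Ccne1, Aurka and Birc5 in 9, and Plk1 and Aurkb in 8.

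**Figure D2:**
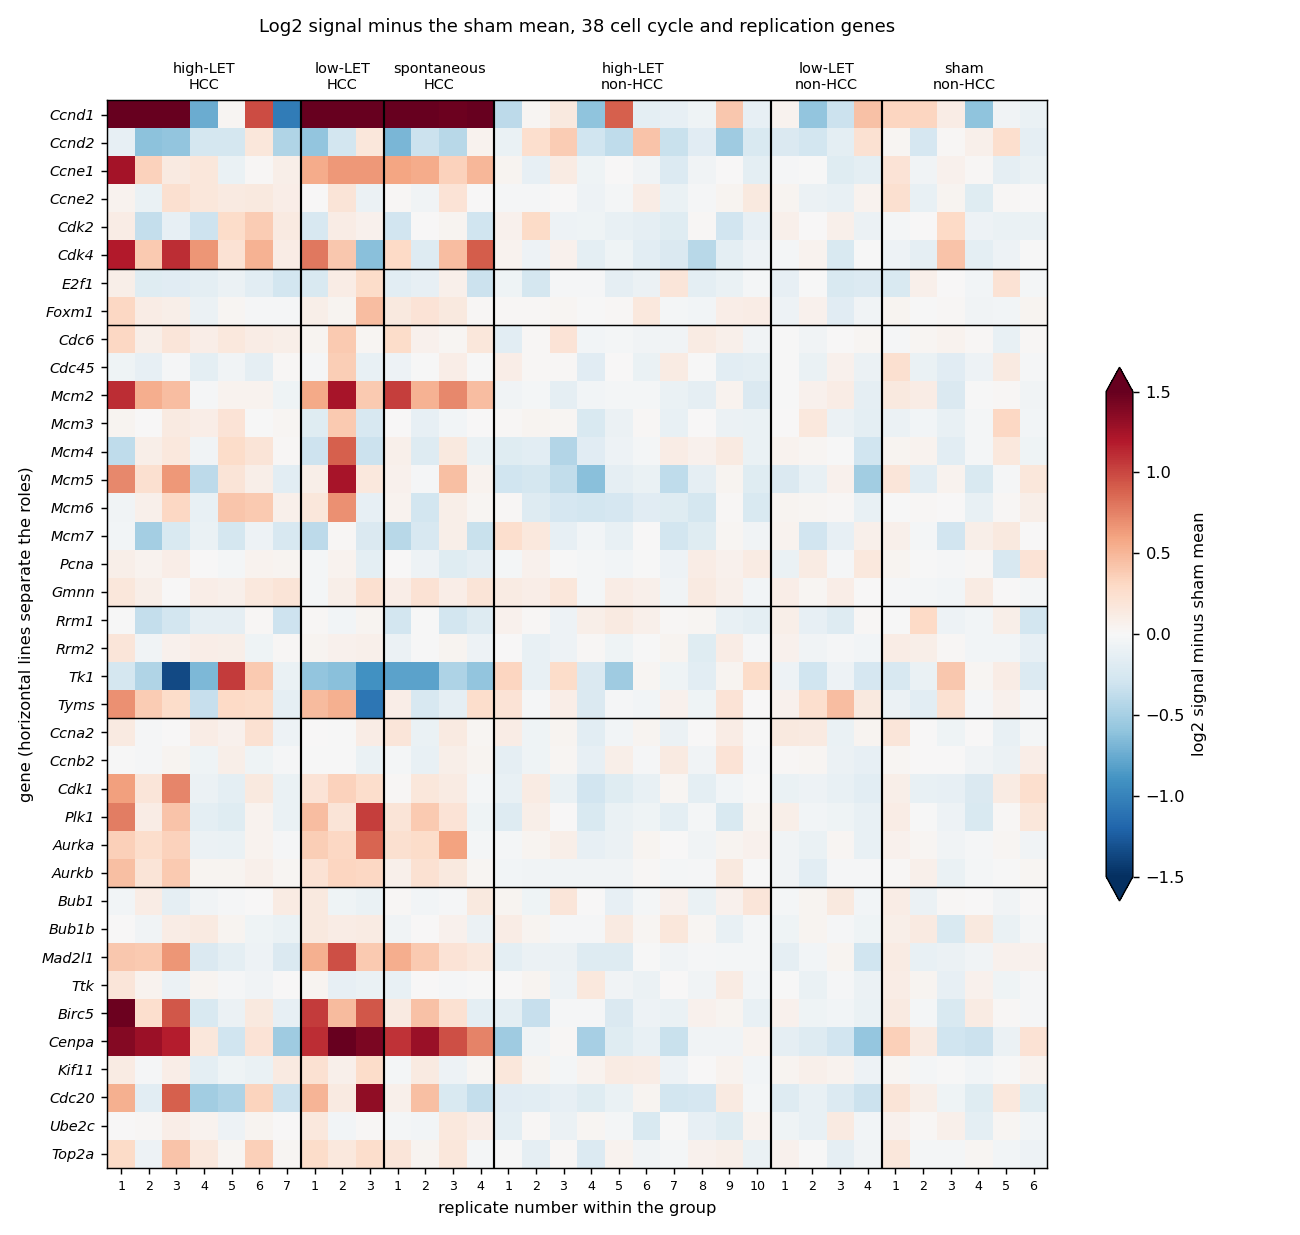
Log2 signal minus the sham mean for each of the 38 genes (rows, grouped by role) in each of the 34 samples (columns, replicate numbers within groups). Ccnd1, Cenpa and Mcm2 stand out in most HCC, whereas high-LET HCC replicates 4 and 7 look like the non-HCC livers in most rows.

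A gene was called changed at an adjusted p under 0.1 (limma, Benjamini-Hochberg over all 45219 probes tested) with a fold above 1.3. Against sham livers, low-LET HCC had 9 of the 38 genes higher and 0 lower, beside 5.4% of all genes called higher and 6% lower. Spontaneous HCC had 4 higher and 0 lower, beside 7.32% and 6.89% of all genes. High-LET HCC had 1 higher and 0 lower, beside 4.62% and 5.47% of all genes. The median log2 fold change over the 38 genes was 0.11 in low-LET, 0.03 in spontaneous and 0.07 in high-LET HCC, beside -0.010, -0.003 and -0.009 over all genes. These 3 comparisons share the 6 sham livers. With BeadChip as a term of the model, 6 genes were called in low-LET HCC (Ccnd1, Ccne1, Mcm2, Aurka, Mad2l1 and Cenpa). Without high-LET HCC replicates 5, 6 and 7, high-LET HCC had 6 of the 38 genes higher (Ccnd1, Ccne1, Cdk4, Mcm2, Birc5 and Cenpa) and Tk1 lower, beside 7.78% of all genes higher and 9.18% lower. Their log2 differences from sham livers were then 1.59 for Ccnd1, 0.47 for Ccne1, 0.84 for Cdk4, 0.52 for Mcm2, 0.60 for Birc5, 1.00 for Cenpa and -0.68 for Tk1 (limma adjusted p of 0.000188 for Cenpa to 0.0291 for Birc5).

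**Figure D3:**
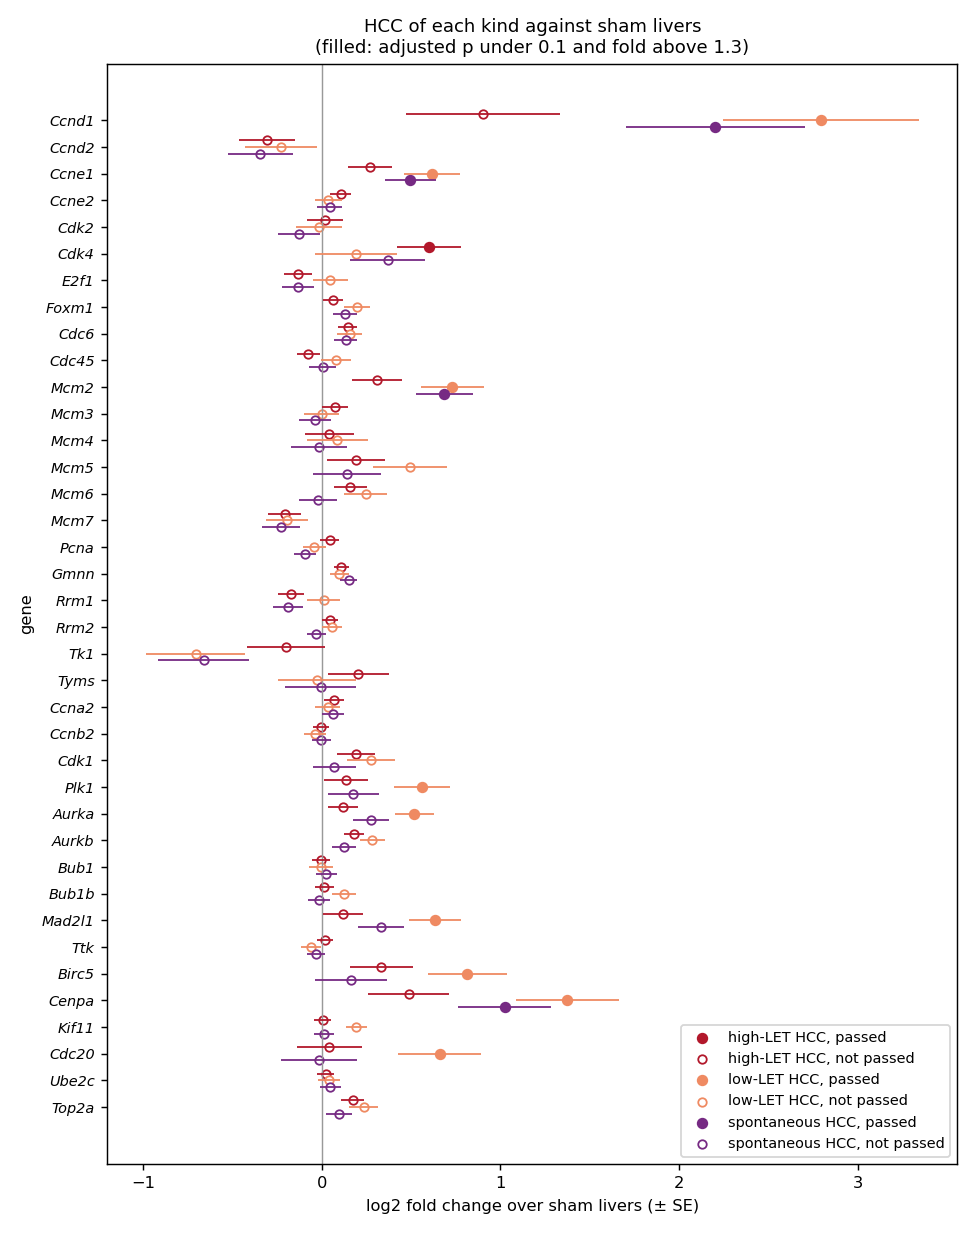
Log2 fold change over sham livers (horizontal axis, bars are SE) of each of the 38 genes in the 3 kinds of HCC, with filled points for genes that passed the test. Filled points number 9 in low-LET, 4 in spontaneous and 1 in high-LET HCC, and most of the other genes lie close to 0.

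Each kind of HCC was also set against non-HCC livers of mice given the same type of radiation. By the study's account the high-LET non-HCC livers came from mice given Fe ions, whereas high-LET HCC arose after Fe or Si ions. In that comparison ion and HCC are in part confounded, and the part of ion was not tested. Low-LET HCC had 10 of 38 genes higher than low-LET non-HCC livers (Ccnd1, Ccne1, Mcm2, Mcm5, Plk1, Aurka, Mad2l1, Birc5, Cenpa and Cdc20) and 0 lower, beside 4.91% of all genes called higher and 5% lower. Without low-LET HCC replicate 3, Plk1, Birc5 and Cdc20 were no longer called (adjusted p = 0.373, 0.128 and 0.379), and without replicate 1 Birc5 was not (adjusted p = 0.108). High-LET HCC had 5 higher than high-LET non-HCC livers (Cdk4, Mcm2, Mcm5, Birc5 and Cenpa) and 0 lower, beside 5.64% and 6.15%. Without replicates 5, 6 and 7 this became 10 higher and Tk1 lower, beside 8.17% and 9.58% of all genes, and the genes added were Ccnd1, Ccne1, Cdk1, Plk1 and Mad2l1. Averaged over the 3 radiation classes, HCC had 8 genes higher than non-HCC livers (Ccnd1, Ccne1, Cdk4, Mcm2, Mcm5, Mad2l1, Birc5 and Cenpa) and Tk1 lower, beside 7.18% of all genes higher and 6.98% lower. Cdk4 fell under the fold required without low-LET HCC replicate 1 (0.34), and Mcm5 and Mad2l1 did so without low-LET HCC replicate 2 (0.30 and 0.37). With BeadChip as a term, Mcm5 was under that fold (0.36, adjusted p = 0.0358) and Tk1 was not called. Without high-LET HCC replicates 5, 6 and 7, Plk1 and Cdc20 were called as well, which made 10 higher and Tk1 lower, beside 8.22% of all genes higher and 8.02% lower. Genes whose low-LET HCC all lay above all low-LET non-HCC livers numbered 15 of 38, beside 8.79% of all genes.

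Among the G1 cyclins and kinases, 3 of 6 were higher in HCC over all classes (Ccnd1, Ccne1 and Cdk4), and the largest log2 fold change of the whole set was that of Ccnd1, cyclin D1, which activates CDK4 and CDK6 in response to growth signals. Its log2 signal was 12.43, 11.80, 11.18, 8.69, 9.47, 10.42 and 8.39 in high-LET HCC replicates 1 to 7. It was 12.15, 12 and 12.54 in low-LET HCC and 12.06, 11.91, 10.91 and 11.69 in spontaneous HCC, against 8.84, 9.46 and 9.76 (lowest, median and highest) in sham livers. All low-LET and spontaneous HCC were above all sham livers, whereas replicates 4, 5 and 7 of the high-LET HCC were within or below their range. Ccnd1 was 6.93-fold higher in low-LET HCC than in sham livers (log2 fold change 2.79, SE 0.55, limma adjusted p = 0.00116) and 2.20 higher on the log2 scale in spontaneous HCC (SE 0.50, adjusted p = 0.003). In high-LET HCC the difference of 0.90 did not pass (SE 0.43, adjusted p = 0.241). It was 1.59 and passed (adjusted p = 0.00956) without replicates 5, 6 and 7, in a fit that leaves out the tumors nearest the livers. The other 2 probes of Ccnd1 gave 2.88 and 2.41 in low-LET HCC.

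Ccne1, cyclin E1, which activates CDK2 at the entry into S phase, moved by less. Its log2 signal was 6.87, 6.96 and 6.96 in low-LET HCC and 6.90, 6.87, 6.65 and 6.81 in spontaneous HCC, all above the sham livers, which lay at 6.17, 6.30 and 6.51. In high-LET HCC it was 7.56 in replicate 1 and 6.21 to 6.65 in the others. The log2 fold change over sham livers was 0.62 in low-LET HCC (SE 0.16, limma adjusted p = 0.0107), 0.50 in spontaneous HCC (SE 0.14, adjusted p = 0.0205) and 0.27 in high-LET HCC (SE 0.12, adjusted p = 0.21), or 0.47 without high-LET replicates 5, 6 and 7 (adjusted p = 0.0112).

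Cdk4, the kinase partner of the D-type cyclins, was the 1 gene of the set called in high-LET HCC against sham livers. It gave 9.20, 8.41, 9.12, 8.67, 8.23, 8.53 and 8.12 in high-LET HCC, with 7.59, 7.90 and 8.08 in high-LET non-HCC livers and 7.87, 7.94 and 8.44 in sham livers. Every high-LET HCC was above every high-LET non-HCC liver, and the sham livers overlapped them through sham replicate 3 at 8.44. The log2 fold change of Cdk4 in high-LET HCC was 0.60 over sham livers (SE 0.18, limma adjusted p = 0.0359) and 0.72 over high-LET non-HCC livers (SE 0.16, adjusted p = 0.00265). With arrays scaled to a common median the difference from sham livers was 0.65 and was not called (adjusted p = 0.143). In low-LET HCC Cdk4 was at 8.80, 8.42 and 7.38, a difference of 0.19 from sham livers that did not pass (adjusted p = 0.798), and 0.37 in spontaneous HCC did not pass either (adjusted p = 0.35). A dimmer second probe was higher by 0.44 in spontaneous HCC (adjusted p = 0.0117) and gave 0.25 in high-LET HCC, so the 2 probes differed in which HCC they placed highest. Ccnd2, cyclin D2, was -0.23 over all HCC (adjusted p = 0.15), and Cdk2, the partner of cyclin E, was -0.03 (adjusted p = 0.864).

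The 2 transcription factors of the set showed little. E2f1, which activates S phase genes, differed from sham livers by -0.13 on the log2 scale in high-LET HCC, by 0.05 in low-LET HCC and by -0.14 in spontaneous HCC, and none of these passed (adjusted p = 0.366, 0.901 and 0.442). Foxm1, an activator of mitotic genes, passed on p over all HCC (adjusted p = 0.00889), but its log2 fold change of 0.14 was under the fold required.

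Among the 10 licensing and replication genes, Mcm2 and Mcm5, subunits of the MCM helicase that unwinds DNA, were higher in HCC over all classes and none was lower. Mcm2 gave 7.53, 6.97, 6.89, 6.40, 6.48, 6.48 and 6.36 in high-LET HCC. It gave 6.99, 7.66 and 6.81 in low-LET and 7.46, 6.94, 7.14 and 6.89 in spontaneous HCC, against 6.21, 6.43 and 6.57 in sham livers. The low-LET and spontaneous HCC were all above the sham livers, as were high-LET replicates 1, 2 and 3, and the other 4 high-LET HCC were within their range. The log2 fold change of Mcm2 over sham livers was 0.73 in low-LET HCC (SE 0.18, limma adjusted p = 0.00756), 0.69 in spontaneous HCC (SE 0.16, adjusted p = 0.00409) and 0.31 in high-LET HCC, which did not pass (adjusted p = 0.206) unless replicates 5, 6 and 7 were left out (0.52, adjusted p = 0.0148). Against high-LET non-HCC livers, at 6.20, 6.37 and 6.48, the high-LET HCC was higher by 0.38 (SE 0.12, adjusted p = 0.0402), a fold of 1.301 that lay just past the fold required. This call was lost without any 1 of high-LET HCC replicates 1, 2 and 3 or of high-LET non-HCC replicates 3, 7, 8 and 10 (0.25 to 0.38), and the calls in low-LET HCC were lost without low-LET HCC replicate 2 (0.48 over sham livers, adjusted p = 0.153, and 0.47 over low-LET non-HCC livers, adjusted p = 0.211).

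Mcm5 gave 7.65, 7.17, 7.58, 6.54, 7.13, 7.02 and 6.77 in high-LET HCC, against 6.31, 6.71 and 6.97 in high-LET non-HCC livers. In low-LET HCC it gave 7.02, 8.17 and 7.09, against 6.72, 6.82, 7.00 and 6.41 in low-LET non-HCC livers. Both were calls (log2 fold changes of 0.44, SE 0.14, limma adjusted p = 0.0455, and 0.69, SE 0.22, adjusted p = 0.0671), with the value of 8.17 in low-LET replicate 2 well above the other low-LET tumors. Against sham livers, whose Mcm5 signal was 6.70, 6.96 and 7.11, no kind of HCC was called for this gene. Without low-LET HCC replicate 2 the low-LET difference was 0.32 (adjusted p = 0.553), and that call was also lost without low-LET non-HCC replicate 1 or 4 (adjusted p = 0.12 and 0.204). The high-LET call was lost without high-LET HCC replicate 1 or 3 (0.35 and 0.36, adjusted p = 0.125 and 0.137), and replicate 3 was the tumor with the high neutrophil markers.

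The other replication genes were close to the livers. Pcna gave 6.01 to 6.14 in high-LET HCC, 5.90 to 6.09 in low-LET HCC and 5.86 to 6.05 in spontaneous HCC, against 5.80 to 6.25 in sham livers, and all of these ranges overlapped. Its log2 differences of 0.04, -0.04 and -0.10 did not pass (adjusted p = 0.756, 0.856 and 0.415). Mcm4, Mcm3 and Cdc45, which loads onto the helicase as origins fire, had log2 differences over all HCC of 0.08, 0.03 and 0.02 that did not pass. Mcm6 and Cdc6, a loader of the helicase, passed on p over all HCC (adjusted p = 0.032 and 0.00348) at log2 fold changes of 0.19 and 0.15, under the fold required, and Mcm7 did so at -0.17 (adjusted p = 0.0457).

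Of the 4 genes of deoxynucleotide supply none was higher. Tk1, the thymidine kinase of the salvage pathway, was lower in HCC over all classes by 0.46 on the log2 scale (-0.46, SE 0.15, limma adjusted p = 0.0228). Its log2 signal was 8.03, 8 and 7.71 in low-LET and 7.82, 7.82, 8.16 and 8.03 in spontaneous HCC, all below the sham livers at 8.38, 8.59 and 9.03. In high-LET HCC it was 8.36, 8.17, 7.27, 7.95, 9.67, 9.02 and 8.52, and replicate 5 was above every other sample of that group and above all sham livers. Neither low-LET nor spontaneous HCC passed alone against sham livers (-0.71 and -0.66, adjusted p = 0.142 and 0.103), but Tk1 was called lower in spontaneous HCC on the authors' values, with an offset of 16, with a filter on the background limit and in a fit of the compared groups, and the last also called it in low-LET HCC. In high-LET HCC without replicates 5, 6 and 7 it was lower by 0.68 (-0.68, adjusted p = 0.00444). The other 3 probes of Tk1 were dimmer and gave -0.18, -0.14 and -0.06 over all HCC. The call was lost with BeadChip as a term (-0.27, adjusted p = 0.329) and on scaling to a common median (-0.38, adjusted p = 0.215). Rrm1 and Rrm2, the subunits of ribonucleotide reductase, were -0.10 and 0.04 over all HCC, and Tyms, thymidylate synthase, was -0.03, and none of the 3 passed (adjusted p = 0.159, 0.484 and 0.923).

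**Figure D4:**
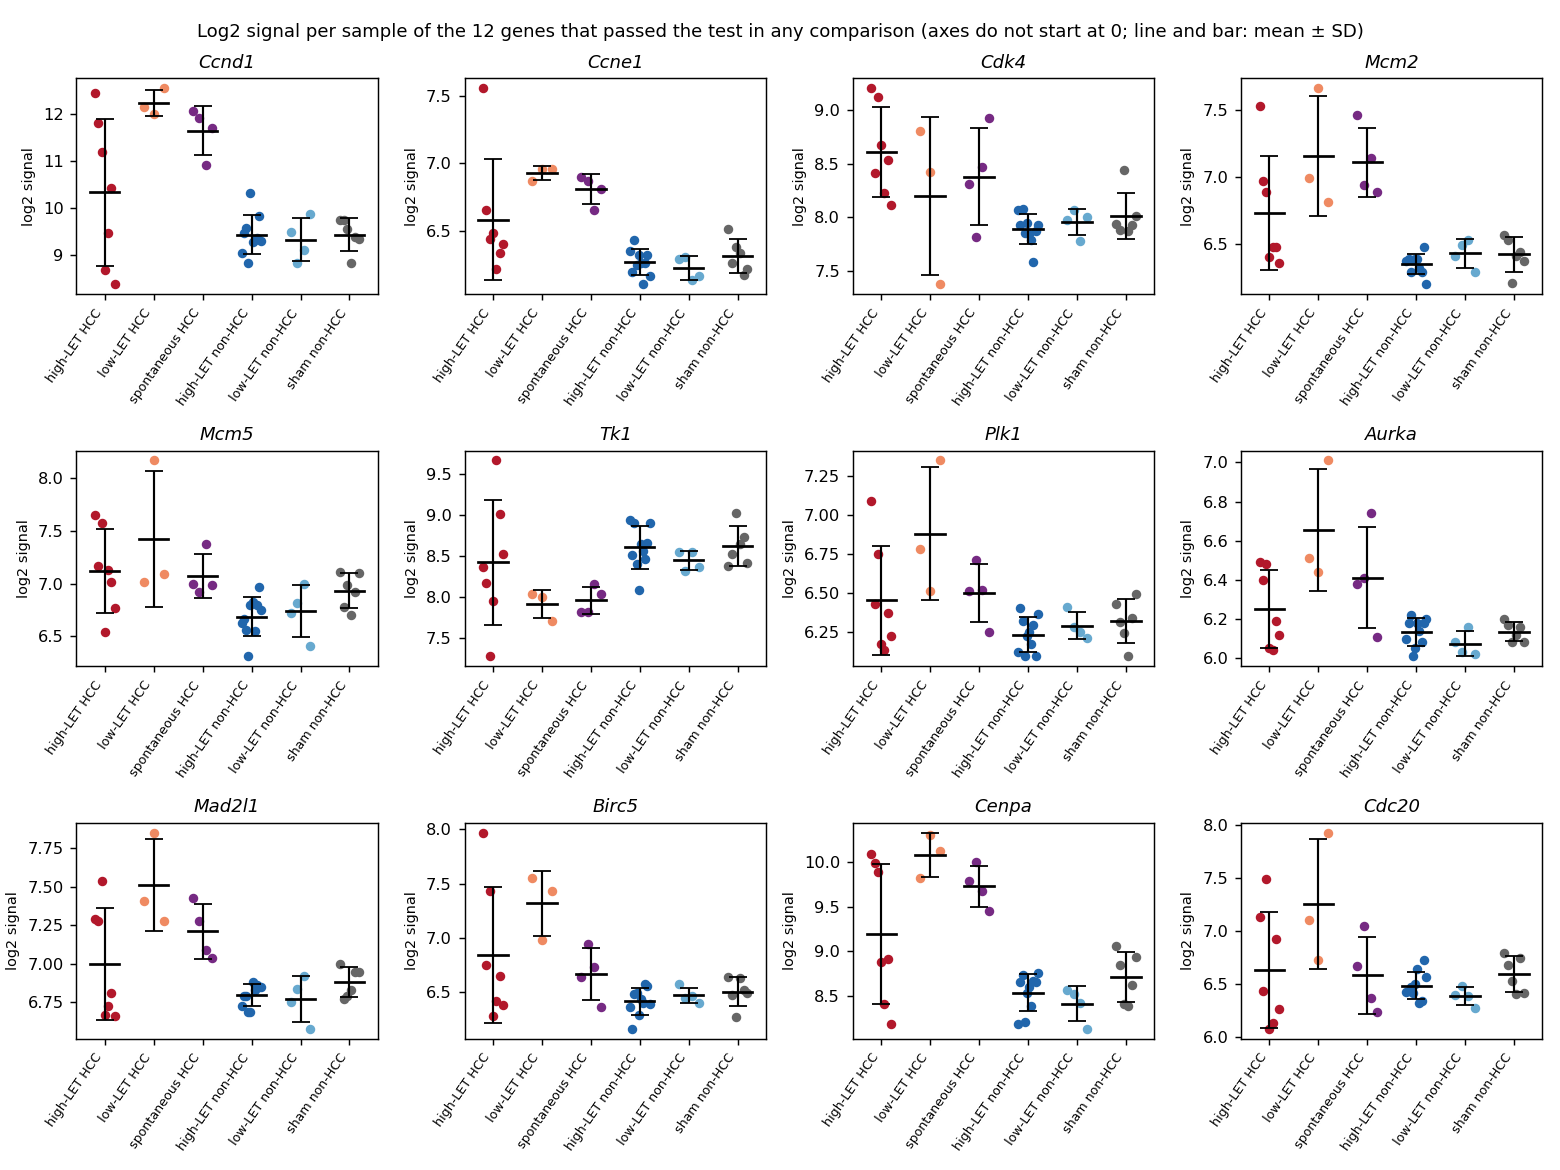
Log2 signal per sample in the 6 groups of the 12 genes that passed the test in any comparison, with group mean and SD as line and bar. For Cenpa, Mcm2 and Ccne1 every low-LET and spontaneous HCC lies above the sham livers, and Tk1 is the 1 gene with these tumors below them.

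Plk1 and Aurka, kinases of mitosis, were higher in low-LET HCC. Of the 6 measured genes of S and M phase cyclins and kinases, these were the 2 called there, and none was called in high-LET or spontaneous HCC. Plk1, polo-like kinase 1, which acts from mitotic entry to cytokinesis, gave 6.78, 6.51 and 7.35 in low-LET HCC, against 6.09, 6.33 and 6.49 in sham livers. The 3 tumors were above all sham livers, replicate 2 by little, and the log2 fold change was 0.56 (SE 0.16, limma adjusted p = 0.0217). Without low-LET HCC replicate 3 it was 0.32 (adjusted p = 0.328), and with BeadChip as a term it was 0.42 (adjusted p = 0.273). Aurka, the centrosomal Aurora kinase, gave 6.51, 6.44 and 7.01 in low-LET HCC and 6.38, 6.41, 6.74 and 6.11 in spontaneous HCC, against 6.08, 6.14 and 6.20 in sham livers. The low-LET HCC did not overlap the sham livers and spontaneous replicate 4 did. Aurka was higher in low-LET HCC by 0.52 on the log2 scale (SE 0.11, adjusted p = 0.00241), or by 0.34 without replicate 3 (adjusted p = 0.0745, under the fold required). The difference of 0.28 for spontaneous HCC was also under that fold (adjusted p = 0.0816). In high-LET HCC, replicates 1, 2 and 3 gave 6.49, 6.40 and 6.48 and replicates 4 to 7 gave 6.05, 6.04, 6.19 and 6.12.

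Aurkb, the kinase of the chromosomal passenger complex, passed on p in low-LET and high-LET HCC against sham livers (adjusted p = 0.0104 and 0.0471) at log2 fold changes of 0.28 and 0.18, both under the fold required. Cdk1, the kinase that brings cells into mitosis, was at 6.33, 6.47 and 6.38 in low-LET HCC and at 6.14, 6.29, 6.25 and 6.09 in spontaneous HCC, against 5.90, 6.11 and 6.37 in sham livers. In high-LET HCC it was 6.74, 6.30, 6.85, 6.03, 5.97, 6.27 and 6.02, so that replicates 1 and 3 were the highest of all tumors. None of the 3 differences of Cdk1 from sham livers passed (0.19 after high-LET, 0.28 after low-LET and 0.07 after no radiation, adjusted p = 0.332, 0.288 and 0.842).

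Of the 10 measured spindle, kinetochore and chromosome genes, 4 were higher in low-LET HCC than in sham livers (Cenpa, Birc5, Mad2l1 and Cdc20) and none lower. This stands beside 5.4% of all genes higher and 6% lower, and beside 2 of 6 G1 genes and 2 of 6 mitotic cyclins and kinases. With BeadChip as a term of the model, Birc5 and Cdc20 were not called. Cenpa encodes the histone variant that marks centromeres. It gave 9.82, 10.31 and 10.12 in low-LET HCC and 9.79, 10, 9.68 and 9.45 in spontaneous HCC, against 8.39, 8.73 and 9.06 in sham livers. In high-LET HCC, replicates 1, 2 and 3 gave 10.09, 9.99 and 9.89, all above the sham livers, and replicates 4 to 7 gave 8.88, 8.41, 8.91 and 8.18, all within or below their range. The log2 fold change of Cenpa over sham livers was 1.37 in low-LET HCC (SE 0.29, limma adjusted p = 0.002), 1.02 in spontaneous HCC (SE 0.26, adjusted p = 0.00832) and 0.48 in high-LET HCC, which did not pass (SE 0.23, adjusted p = 0.222). Without high-LET replicates 5, 6 and 7 this was 1.00 and passed (adjusted p = 0.000188). Against high-LET non-HCC livers the high-LET HCC was higher by 0.66 (SE 0.20, adjusted p = 0.0274). A second Cenpa probe, dimmer and above background on 25 of 34 arrays, gave 0.02, 0.04 and 0.03 in the 3 kinds of HCC, so the change rests on 1 probe.

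Birc5, survivin, a subunit of the chromosomal passenger complex and an inhibitor of cell death, gave 7.55, 6.98 and 7.43 in low-LET HCC, against 6.27, 6.51 and 6.64 in sham livers. In spontaneous HCC it gave 6.64, 6.94, 6.73 and 6.36, which overlapped the sham livers. In high-LET HCC it gave 7.97, 6.75, 7.43, 6.28, 6.42, 6.65 and 6.38, against 6.16, 6.41 and 6.57 in high-LET non-HCC livers, and replicate 1 was the highest of all samples. Birc5 was higher by 0.82 in low-LET HCC than in sham livers (SE 0.22, limma adjusted p = 0.0189), and the other 2 probes gave 0.48 and 0.46. In high-LET HCC it was higher by 0.43 than in high-LET non-HCC livers (SE 0.16, adjusted p = 0.0746). The low-LET call was lost without low-LET HCC replicate 1 (0.70, adjusted p = 0.101) and with BeadChip as a term (0.73, adjusted p = 0.185). Over sham livers, high-LET HCC without replicates 5, 6 and 7 was higher by 0.60 (adjusted p = 0.0291). The high-LET call was lost without high-LET HCC replicate 1 (0.24, adjusted p = 0.224) or 3 (0.33, adjusted p = 0.221) without high-LET non-HCC replicate 2 or 5 (adjusted p = 0.119 and 0.107), and with BeadChip as a term (0.42, adjusted p = 0.221).

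Mad2l1, the spindle checkpoint protein MAD2, gave 7.41, 7.85 and 7.28 in low-LET HCC and 7.43, 7.28, 7.09 and 7.04 in spontaneous HCC, against 6.77, 6.89 and 7.00 in sham livers. No tumor of these 2 kinds overlapped the sham livers, and Mad2l1 was higher by 0.63 on the log2 scale in low-LET HCC (SE 0.14, limma adjusted p = 0.00444), whereas the difference of 0.33 in spontaneous HCC did not pass (adjusted p = 0.119). A dimmer second probe of Mad2l1, above background on 20 of 34 arrays, gave 0.23 in low-LET HCC and was not called (adjusted p = 0.131). High-LET HCC replicates 1, 2 and 3 gave 7.29, 7.28 and 7.54, and replicates 4 to 7 gave 6.67, 6.73, 6.81 and 6.66. Cdc20, the activator of the anaphase-promoting complex, was the weakest of the calls in low-LET HCC. It gave 7.11, 6.73 and 7.93 there, against 6.41, 6.61 and 6.79 in sham livers, which overlapped them, and the log2 fold change was 0.66 (SE 0.23, adjusted p = 0.0888). Of its other 3 probes, 2 gave 0.67 and 0.52 and 1 gave 0.09. Without low-LET HCC replicate 3 the difference was 0.32 (adjusted p = 0.628), and the call was also lost without low-LET HCC replicate 1 or any 1 of sham replicates 2, 3, 4 and 6 (adjusted p of 0.103 to 0.148), and with BeadChip as a fixed term (0.43, adjusted p = 0.485) or a random block (0.63, adjusted p = 0.106). Further losses came on the authors' values (adjusted p = 0.222), with an offset of 16 and on median scaling (adjusted p = 0.106 in each). It was lost too in an ordinary linear model (adjusted p = 0.112) and in a fit of the compared groups (adjusted p = 0.131). The Cdc20 call against sham livers was lost in 15 of 24 alternatives.

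Top2a, the topoisomerase that untangles replicated chromosomes and a common proliferation marker, gave 6.34, 6.22 and 6.33 in low-LET HCC and 6.25, 6.11, 6.24 and 6.04 in spontaneous HCC, against 5.99, 6.03 and 6.23 in sham livers. In high-LET HCC it gave 6.35, 5.99, 6.49, 6.22, 6.10, 6.42 and 6.09. The log2 differences of 0.23 in low-LET HCC (limma adjusted p = 0.0906) and 0.17 in high-LET HCC (adjusted p = 0.107) were under the fold required. The remaining genes of this role, Bub1, Bub1b and Ttk of the spindle checkpoint, the spindle motor Kif11 and the ubiquitin-conjugating enzyme Ube2c, were called in no comparison.

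In irradiated livers without HCC no gene of the set was called. Against sham livers, 0 of 38 genes were called in high-LET and 0 in low-LET non-HCC livers (limma), beside 0% of all genes in either comparison. At an unadjusted p under 0.05 there were 1 gene (Mcm6) and 0 genes, beside 2.79% and 2.99% of all genes. The log2 differences of the 38 genes lay between -0.25 and 0.06 in high-LET and between -0.30 and 0.23 in low-LET non-HCC livers. Ccnd1, for example, was at 8.84, 9.35 and 10.33 in high-LET and 9.49, 8.85, 9.12 and 9.88 in low-LET non-HCC livers, which overlapped the sham livers.

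The 3 kinds of HCC were then compared with one another. In high-LET against low-LET HCC, 0 of 38 genes were called, beside 0.887% of all genes, and 11 had an unadjusted p under 0.05, as did 12.8% of all genes. High-LET HCC was lower in log2 signal by 1.89 for Ccnd1 (-1.89, SE 0.54, limma adjusted p = 0.122), and the differences were -0.52 for Mad2l1 (adjusted p = 0.106), -0.40 for Aurka (adjusted p = 0.104), -0.89 for Cenpa (adjusted p = 0.174) and -0.62 for Cdc20 (adjusted p = 0.276). Against spontaneous HCC, 0 genes were called in high-LET HCC, beside 3.49% of all genes, with 4 at an unadjusted p under 0.05, where 16.8% of all genes were. Low-LET against spontaneous HCC gave 0 calls, beside 0.0105% of all genes, and 6 at an unadjusted p under 0.05, beside 5.73% of all genes. The interaction of radiation and HCC, which asks whether the step from liver to tumor differed between the 3 radiation classes, was called for 0 of 38 genes at an adjusted p under 0.2, beside 0.95% of all genes, and its lowest adjusted p values were 0.353 for Aurka and 0.393 for Ccnd1.

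These comparisons of kinds of HCC rested on single tumors. High-LET HCC replicate 1 had the highest score of the 34 samples (0.396). Leaving it out favors lower values of the set in high-LET HCC, so the counts without it are descriptive. Without high-LET HCC replicate 1, 8 genes were called lower in high-LET than in low-LET HCC (Ccnd1, Ccne1, Mcm2, Plk1, Aurka, Mad2l1, Birc5 and Cenpa), beside 2.1% of all genes. Likewise 3 genes (Ccnd1, Ccne1 and Mcm2) were lower than in spontaneous HCC, beside 3.79% of all genes, and 3 genes had an interaction (Ccnd1, Ccne1 and Aurka), beside 4.36%. Without replicate 2 or 3 the calls lower than in low-LET HCC numbered 4 and 5, and the share of all genes in these fits was not counted. Without replicates 5, 6 and 7 the counts were also 0 in high-LET against low-LET HCC, beside 0.74% of all genes, in high-LET against spontaneous HCC, beside 1.83%, and for the interaction, beside 0.462%.

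Within the high-LET HCC, replicates 1, 2 and 3, from mice given 0.1, 0.2 and 0.2 Gy, had scores of 0.396, 0.118 and 0.237 and were the 3 tumors above all sham livers for Ccnd1, Mcm2, Mad2l1, Aurka and Cenpa together. Other called genes parted the tumors differently. For Cdk4, replicate 2 (8.41) was within the sham range, up to 8.44, and replicates 4 (8.67) and 6 (8.53) were above it. For Cdc20, replicate 2 (6.44) was within the sham range and replicate 6 (6.93) above it, and for Ccne1 replicate 3 (6.44) was within it. Replicate 4, at 0.4 Gy, had a score of -0.077 with 2 genes above the highest sham liver and 11 below the lowest, although it lay at 52.5 on the first principal component, among the other HCC. High-LET non-HCC livers had 1 to 6 genes above and 3 to 16 below, and the share of all genes was not counted. Replicate 6, at 1 Gy, had a score of 0.125 and lay near the non-HCC livers on that component, and replicate 5, at 0.2 Gy, and replicate 7, at 1 Gy, lay near them with scores of 0.032 and -0.084. A low score and a place near the livers therefore did not go together in every tumor, as the plot of score against the first principal component shows. The ion was not taken into account, and dose and ion were not tested.

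**Figure D5:**
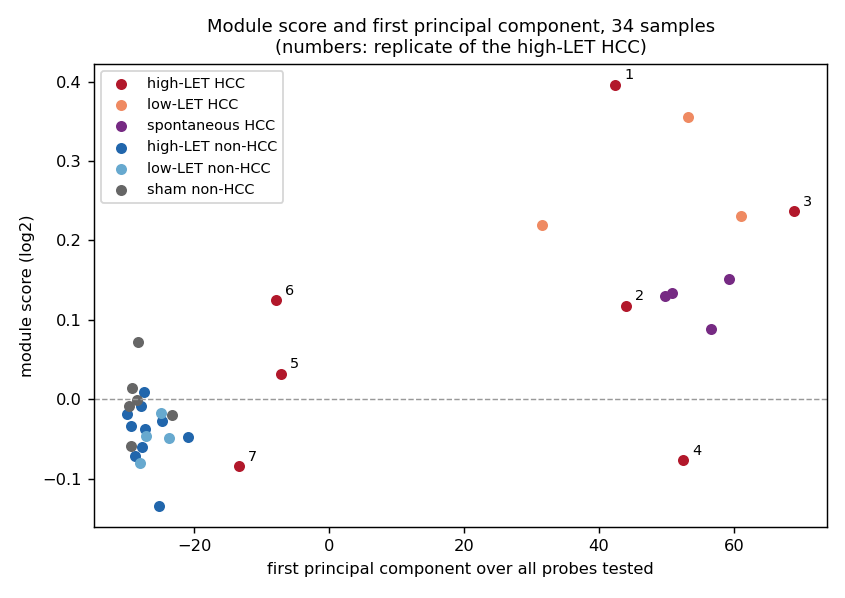
Module score (vertical axis, log2) against the first principal component over all probes (horizontal axis, no unit) for the 34 samples, with replicate numbers on the high-LET HCC. High-LET HCC replicate 4 sits among the other HCC at 52.5 on the horizontal axis with a score of -0.077, and replicate 6 sits at -7.9 with a score of 0.125.

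The averages of the roles did not move alike in single tumors. In low-LET HCC replicate 2 the replication genes averaged 0.537 above the sham livers, whereas in replicates 1 and 3 they averaged -0.010 and -0.034. Mitotic cyclins and kinases averaged 0.191 in that same tumor and 0.208 and 0.414 in the other 2, and the G1 genes averaged 0.543, 0.609 and 0.543 over the 3. These G1 averages lean on Ccnd1, whose log2 fold change over sham livers was 2.79 in low-LET HCC. The median over the 6 G1 genes was 0.11 there. Deoxynucleotide genes averaged -0.265 to -0.153 in the 4 spontaneous HCC and -0.156 to 0.145 in the sham livers. Their average leans on Tk1, at -0.66 over sham livers in spontaneous HCC, where the median over the 4 genes was -0.11. In high-LET HCC replicate 1 the G1 genes averaged 0.911, the highest of the 34 samples.

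A wider list of 76 cell cycle genes outside the set, 75 of them measured, held calls in both directions. Against sham livers, 4 of the 75 were higher and 4 lower in high-LET HCC, 11 higher and 4 lower in low-LET HCC, and 6 higher and 5 lower in spontaneous HCC. These stand beside 4.62% and 5.47%, 5.4% and 6%, and 7.32% and 6.89% of all genes, which for high-LET and spontaneous HCC is near the share in the list. Over all HCC, 10 were higher and 5 lower, beside 7.18% and 6.98% of all genes, and the share lower in the list is near the latter. Among its 11 inhibitors of cyclin-dependent kinases and pocket proteins, 3 were higher in high-LET HCC and 4 each in the other 2 kinds, and 1 was lower in each kind.

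The inhibitor lower in all 3 kinds was Rb1, the retinoblastoma protein that holds E2F in check, with log2 fold changes over sham livers of -0.76 in high-LET HCC (SE 0.10, limma adjusted p = 1.71e-05), -0.70 after low-LET radiation and -0.64 in spontaneous HCC. Cdkn2b, the CDK4 and CDK6 inhibitor p15, was higher by 3.33 in low-LET HCC (SE 0.60, adjusted p = 0.000474), 2.33 in spontaneous HCC (SE 0.55, adjusted p = 0.00407) and 1.68 in high-LET HCC (SE 0.47, adjusted p = 0.0236). Lig1, the ligase that joins Okazaki fragments, was higher by 0.42, 0.43 and 0.50 (adjusted p = 0.00591, 0.0272 and 0.00306), and Rfc5, a subunit of the clamp loader, was lower (-0.47, -0.45 and -0.56, adjusted p = 0.00239, 0.0177 and 0.000835), both in the order high-LET, low-LET, spontaneous. Low-LET HCC had more Uhrf1, which keeps DNA methylation through replication (0.77, adjusted p = 0.0016), and more Cdkn3, a phosphatase of cyclin-dependent kinases (1.32, adjusted p = 0.00497). Spontaneous HCC had more Cdc25a, the phosphatase that activates CDK2 (0.65, adjusted p = 2.1e-05), and more Cdkn1c, the inhibitor p57 (1.31, adjusted p = 4.5e-05), which was also higher in high-LET HCC (0.64, adjusted p = 0.0203). Mcm10, a replication initiation factor, was lower in all 3 kinds, with -1.75 in high-LET (adjusted p = 0.0174), -2.02 in low-LET (adjusted p = 0.0323) and -3.47 in spontaneous HCC (adjusted p = 4.82e-05), and was higher in high-LET than in spontaneous HCC (1.72, SE 0.53, adjusted p = 0.0933). It was the 1 gene of the list called higher in that comparison, and 2 were called lower, beside 3.49% of all genes called in either direction. Of those 2, 1 was an inhibitor or pocket protein and 1 was among the other cyclins, their kinases and phosphatases. Spc25, of the kinetochore NDC80 complex, was the 1 gene of the list lower in high-LET than in low-LET HCC (-0.47, adjusted p = 0.0714).

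Arrays were spread over 8 BeadChips, and differences within a BeadChip could be had where it held both groups. Over the 6 BeadChips with HCC and non-HCC livers, Ccnd1, Ccne1, Cdk4, Mcm2, Mcm5, Mad2l1 and Cenpa were higher in HCC on all 6, with Ccnd1 higher by 0.85 to 2.96 and Cenpa by 0.28 to 1.78. Birc5 was higher on 4 of 6 and Tk1 lower on 5 of 6. Cdk4 was higher in high-LET HCC than in sham livers on 3 of 3 BeadChips, by 0.09 to 0.41, less than the 0.60 of the whole comparison. For low-LET HCC only 1 BeadChip held both groups, where Ccnd1 was 2.61 and Cenpa 1.41 above the sham livers. With BeadChip as a term of the model, 6 genes were called in low-LET HCC against low-LET non-HCC livers, where 10 were called without it.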

How the data were processed

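Liver and tumor RNA of 34 mice was hybridized to Illumina mouse BeadChips, and the array's probes were named through the platform annotation, in which 34885 probes had 1 gene symbol, 18 had several and 10378 had none here. Bead intensities were summarized by the authors in GenomicStudio 3.0 and deposited as linear values from which background had not been taken. The authors' normalized values had background subtracted with MBCB, were quantile normalized, and were taken as log2 from their range. Their column medians were 2.88, they ranked probes as the intensities did (rank correlation of at least 0.99997), and they served as an alternative.

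Intensities were corrected with normexp (offset 50) and quantile normalized in limma 3.58.1 (R 4.3.3) on the log2 scale. A probe was kept if its intensity exceeded, on at least 3 arrays, the median of the dimmest 25% of that array's probes, which left 45219. The 6 group means were fitted to all 34 arrays with lmFit and eBayes, with Benjamini-Hochberg adjustment over all probes kept. A call needed an adjusted p below 0.1 with a fold above 1.3, and an interaction an adjusted p below 0.2, after the thresholds of the study. The background limit of an array was the mode of its intensities plus the one-sided 95% point of a normal distribution whose SD came from the values below the mode. Given in full are members called in any comparison and 6 landmarks (Mki67, Top2a, Cdk1, Ccnd1, Pcna and Mcm2), and of the wider list up to 4 called genes with the smallest adjusted p per comparison. Promoters are shown for up to 8 called members.

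Raw medians per array were 93.1 to 127, and 21755 to 26311 probes were above background. The number of arrays per group limits the precision. The members and the lists were chosen with earlier results of these data known. The scripts were tested on simulated data. Alternatives were the authors' values, no background correction, an offset of 16, median scaling, other filters, an ordinary linear model, BeadChip as a block (fixed, then random), other thresholds, a fit of the compared groups alone, other probes and leaving out each replicate. Leaving out high-LET HCC replicates 5, 6 and 7 together was chosen after the data were seen, for their place near the livers, which favors larger differences from livers. The ion is not given for every high-LET mouse in the labels and was not used.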

Additional observations from a re-analysis of the deposited data

Results flagged for a closer look

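In 65 groups of values (the score and the 12 called genes), 2 samples stood far from the rest of their group, where chance gives about 1 in 20 groups. Ccne1 in high-LET HCC replicate 1 was at 7.56 on the log2 scale, with the next of the 7 tumors at 6.65. Cdk4 in sham liver replicate 3 was at 8.44, with the next of the 6 sham livers at 8.01.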

How the results depend on the processing

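No called fold change changed sign under the alternatives run. Nor did a score difference, except that of high-LET against spontaneous HCC, which was -0.019 and lay between -0.134 and 0.042. The share of all genes called was counted only for the main fit and for some fits that left out high-LET HCC replicates. Counts of calls under the other alternatives, here, above and below, therefore do not tell a change in the set from one over all genes. On the authors' normalized values, the calls numbered 18 over all HCC, 12 in high-LET HCC against high-LET non-HCC livers, 4 in high-LET HCC and 7 in spontaneous HCC against sham livers. On them the score differences were 0.439 over all HCC, 0.34 and 0.723 for high-LET and low-LET HCC against their own livers, 0.592 and 0.254 for low-LET and spontaneous HCC against sham livers, -0.363 and 0.338 for high-LET against low-LET and low-LET against spontaneous HCC, and -0.111 and -0.13 for high-LET and low-LET non-HCC against sham livers. Without background correction 5 genes were called over all HCC and 2 in high-LET HCC against its livers, and the low-LET score difference from its own livers was 0.257. An offset of 16 gave 14 and 9 calls, and score differences of 0.432 (low-LET HCC against its livers), 0.362 and 0.168 (low-LET and spontaneous HCC against sham livers). With no minimum fold, 20 genes passed over all HCC, 12 in high-LET HCC against its livers and 2 against sham livers. Scaling to a common median gave 0 calls in high-LET HCC against sham livers and score differences of 0.387 and 0.333 in low-LET HCC against its own and sham livers. It moved the share of called probes that were higher to 74%, where quantile normalization gave 47.3%, in high-LET HCC against sham livers, to 71.6% (46.6%) in low-LET HCC against sham livers, to 70.5% (49.8%) and 76.8% (49%) in high-LET and low-LET HCC against their own livers, and to 1.8% (33.1%) in high-LET against low-LET HCC. No called gene of the set changed direction with it. The median over the genes in place of the mean gave 0.103 over all HCC, 0.175 and 0.137 in low-LET HCC against its own and sham livers, 0.091 against spontaneous HCC, and 0.046 in spontaneous HCC against sham livers, and the mean over all probes gave 0.254 in low-LET HCC against its livers. In high-LET against low-LET HCC, 3 genes were called with a filter on the background limit (Ccnd1, Aurka and Mad2l1, lower) and 2 with BeadChip as a random block. BeadChip as a fixed block gave 6 calls in low-LET HCC against its livers. A fit of the compared groups alone gave 3 in high-LET HCC against its livers, counting any probe gave 1 in high-LET against spontaneous HCC, and leaving out high-LET HCC replicates 5, 6 and 7 gave 11 in high-LET HCC against its livers and 7 against sham livers.

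With each sample left out in turn, the calls ranged from 1 to 3 in high-LET HCC against sham livers (3 without replicate 7, 2 without replicate 4 or 5) and from 2 to 7 against its own livers (2 without replicate 1 or 3). They ranged from 0 to 8 in high-LET against low-LET HCC (8, 4 and 5 without high-LET HCC replicates 1, 2 and 3, and 3 and 2 without low-LET HCC replicates 1 and 2), from 0 to 3 in high-LET against spontaneous HCC, and from 0 to 3 for the interaction. The ranges were 8 to 9 in low-LET and 4 to 5 in spontaneous HCC against sham livers, and 8 to 9 over all HCC. Nearness to background limits the 7 genes that were above it on fewer than 10 arrays.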
